A study of Mus musculus with 4 samples.

Results

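The 10 genes described here are direct transcriptional targets of the tumour suppressor p53: Cdkn1a, Mdm2, Trp53inp1, Ccng1, Bax, Bbc3, Phlda3, Sesn1, Eda2r and Zmat3. They were chosen by gene symbol, and all 10 were found among the 44628 genes of the deposited count tables. Transcripts were counted in single nuclei of mouse heart with the BD Rhapsody system, which tags each captured RNA molecule with a unique molecular identifier (UMI). There were 2 libraries per group. The control libraries carry the title MCM cre/+, and their genotype field reads wt. The other libraries are titled PKP2fl/fl MCM cre/+, with the genotype pkp2 cko, and are called cKO below. They were made to delete Pkp2, which encodes plakophilin-2, a desmosomal protein of the intercalated disc. Every mouse was given tamoxifen, the labelled age was 8 weeks in both groups, and whole hearts were taken 2 weeks after the injection. Each library was made from a pool of 2 mice, 1 male and 1 female, so a library averages its animals and the 2 libraries of a group are the replicates. The sources used here do not give the promoter that drives the Cre.

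p53 is a DNA-binding protein that is kept scarce by Mdm2, a ubiquitin ligase that marks it for destruction, and by the related protein Mdm4. When DNA is damaged or a cell is under certain other stresses, p53 accumulates and switches on genes that stop the cell cycle, repair damage, alter metabolism or start apoptosis. Mdm2 is itself a target, so the response limits itself. Adult cardiomyocytes divide rarely, and in the heart p53 targets have mostly been studied in injury, pressure overload and cell loss.

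p53 binds a 20-base site made of a pair of adjacent copies of a 10-base consensus motif, which reads the same on both strands. The 250 bases upstream of each gene start in RefSeq (GRCm38.p6) were searched for it. Promoter windows were found for 8 of the 10 genes, 12 windows in all. The full 20-base site with at most 1 difference from the consensus, and no spacer between the copies, was present upstream of Cdkn1a and Ccng1. Over all genes it was present in 19 of 32851 windows (0.0578%). Those sites are shown because Cdkn1a and Ccng1 were the members with the full site close to a start. The sequences run 5′ to 3′ on the strand of the gene, with the 20-base site in capitals.
Cdkn1a, chr17:29090908-29090967, plus strand: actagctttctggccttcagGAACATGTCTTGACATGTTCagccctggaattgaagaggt
Ccng1, chr11:40755442-40755501, minus strand: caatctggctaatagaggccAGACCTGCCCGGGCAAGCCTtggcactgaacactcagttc
The Cdkn1a site lies 51 to 32 bases before the first start of the gene. The window of the second Cdkn1a start held 0 copies of the motif. In the Ccng1 window the site lies 195 to 176 bases before the start. A single exact copy of the 10-base motif was found upstream of Mdm2, Bax and the second start of Sesn1 as well, so that 5 of the 8 genes with a window held one. Over all windows the share was 7.13%, which counts windows and not genes, and a gene can have several windows. These stretches are shown with the 10-base motif in capitals.
Mdm2, chr10:117710915-117710964, minus strand: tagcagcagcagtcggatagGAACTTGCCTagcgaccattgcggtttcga
Bax, chr7:45467070-45467119, minus strand: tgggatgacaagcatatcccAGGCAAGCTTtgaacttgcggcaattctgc
Sesn1, chr10:41887246-41887295, plus strand: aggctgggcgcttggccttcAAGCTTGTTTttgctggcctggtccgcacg
The windows of Phlda3, Bbc3 and Eda2r did not hold these letters. A match describes the sequence and says nothing about binding.

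After filtering, 18739 of 41706 barcodes were kept, between 2805 and 6268 per library, and the libraries held between 13491201 and 40536562 UMIs in all. At most 2 cell labels were shared by any pair of libraries. Although the samples are labelled cardiomyocyte, 6566 nuclei were cardiomyocyte-like by their markers, and 3601 were fibroblast-like. The endothelial-like, mural-like and macrophage-like nuclei were the other classes large enough to test, and the names below stand for these marker-defined classes. Library names follow the labels, with one discrepancy. In cardiomyocytes Pkp2 was at 567 and 552 CPM (counts scaled to a total of 1e6 UMIs per library and class) in the controls and at 618 and 590 CPM in the cKO libraries, and the difference did not pass the test (adjusted p = 0.807, edgeR). The counts cover the whole gene, so they do not show whether a part of it was deleted. Esr1, whose ligand-binding part is built into tamoxifen-inducible Cre proteins, was at 71.0 and 63.4 CPM in the controls and at 3564 and 3293 CPM in the cKO libraries. The title of the controls gives them the same Cre, yet their Esr1 level was far lower, so the Pkp2 alleles and the amount of Cre transcript cannot be told apart as sources of a difference between the groups.

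The 10 genes differed in the cell class where their level was highest and in how far the libraries of a class lay apart. Levels were compared between classes for 1 gene at a time and not between genes, since longer genes give more reads from a nucleus. The values are CPM of the summed nuclei of a class, scaled by the trimmed mean of M values (TMM), and are a description with no test. Sesn1, which encodes a stress-induced inhibitor of mTORC1 signalling, was highest in cardiomyocytes, at 408 to 528 CPM, and was at 234 to 307 CPM in macrophages. In fibroblasts, endothelial and mural nuclei its ranges overlapped, between 142 and 219 CPM. Ccng1 encodes cyclin G1, which acts with a phosphatase to restrain p53. It was also highest in cardiomyocytes, at 75.2 to 114 CPM, and lay between 29.3 and 58.9 CPM in the other classes. Cdkn1a, which encodes the cyclin-dependent kinase inhibitor p21, was lowest in cardiomyocytes, at 9.38 to 15.8 CPM. It ranged from 56.9 to 113 CPM in endothelial nuclei and from 55.9 to 77.0 CPM in macrophages, which overlapped. Bax, a pore-forming protein of the outer mitochondrial membrane in apoptosis, was likewise lowest in cardiomyocytes (14.3 to 21.3 CPM) and reached 59.9 to 91.2 CPM in macrophages. Mdm2 was at 144 to 154 CPM in macrophages, above all the other classes, whose ranges overlapped between 70.4 and 119 CPM. Eda2r, a receptor of the tumour necrosis factor receptor family for an ectodysplasin isoform, was at 14.8 to 42.9 CPM in endothelial nuclei and at 2.69 to 5.84 CPM in cardiomyocytes. Bbc3, which encodes the BH3-only apoptosis activator PUMA, had 27 UMIs in all cardiomyocytes and 4 in all mural nuclei, and was the least counted of the 10 genes together with Phlda3.

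**Figure D1:**
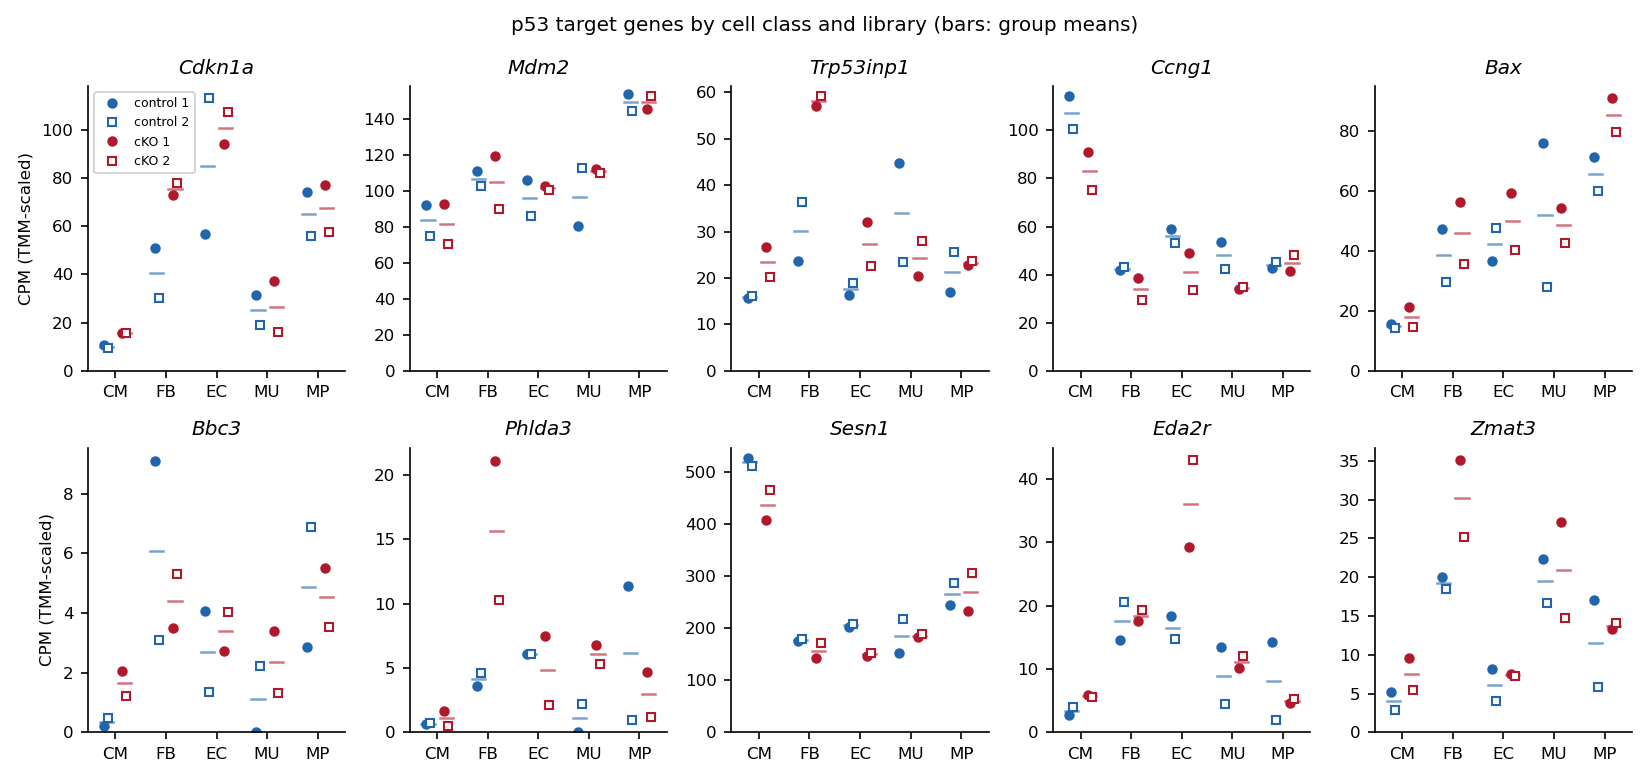
Each panel shows 1 gene, with the TMM-scaled CPM of each library on the vertical axis and the cell class on the horizontal axis (CM cardiomyocytes, FB fibroblasts, EC endothelial nuclei, MU mural nuclei, MP macrophages). Points are libraries and bars are group means. Sesn1 and Ccng1 were highest in cardiomyocytes and Cdkn1a and Bax were lowest there.

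In cardiomyocytes Cdkn1a, Trp53inp1, Zmat3 and Eda2r were at higher levels in both cKO libraries than in either control, while Ccng1 and Sesn1 were lower, but none of these differences passed the test. The test was edgeR's quasi-likelihood test on UMI counts summed per library, with Benjamini-Hochberg adjustment over all genes tested and a threshold of 0.05. Of the 8 members with enough counts, 0 passed by edgeR and 0 by DESeq2, where 2.84% of all 15234 genes tested in cardiomyocytes passed by edgeR. At an unadjusted p under 0.05 the number was 3 of 8, against 14.3% of all genes. The groups did not overlap in 6 of the 8, against 43.7% of all genes. The median log2 fold change of the 8 was 0.40, and over all genes tested it was 0.0034. In sums over the nuclei of a class, fewer expressing nuclei and less RNA per nucleus cannot be told apart.

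Cdkn1a (chr17:29090976-29100727) was at 10.5 and 9.38 CPM in the controls and at 15.8 and 15.7 CPM in the cKO libraries, from 51 to 129 UMIs per library. The cKO libraries lay close together and above both controls. The log2 fold change was 0.67 ± 0.22 (SE), with an adjusted p of 0.194 by edgeR, and lay between 0.58 and 0.75 when each library was left out. Trp53inp1 (chr4:11156431-11174379) encodes a nuclear cofactor that promotes p53-dependent apoptosis and autophagy. It was at 15.7 and 16.1 CPM in the controls and at 26.8 and 20.2 CPM in the cKO libraries, a log2 fold change of 0.55 ± 0.21 (adjusted p = 0.284, edgeR), or 0.34 without the first cKO library. Zmat3 (chr3:32334792-32366014), an RNA-binding protein that acts in splicing, was at 5.17 and 2.94 CPM against 9.61 and 5.48 CPM, with the second cKO library only just above the first control. Its log2 fold change was 0.94 ± 0.41 (adjusted p = 0.350, edgeR), and was 0.51 without the second control and 0.50 without the first cKO library. Eda2r (chrX:97333840-97377216) was at 2.69 and 4.08 CPM against 5.84 and 5.60 CPM, with a log2 fold change of 0.70 ± 0.34 (adjusted p = 0.400, edgeR). The estimate was 0.49 without the first control and 1.08 without the second control.

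Ccng1 (chr11:40748552-40755311) was at 114 and 100.4 CPM in the controls and at 91.0 and 75.2 CPM in the cKO libraries. Both cKO libraries were below both controls, by a log2 fold change of -0.37 ± 0.16 (adjusted p = 0.338, edgeR), or -0.24 without the second cKO library. Sesn1 (chr10:41809935-41908424) was at 528 and 513 CPM against 408 and 466 CPM, a log2 fold change of -0.25 ± 0.14, or -0.16 without the first cKO library. Mdm2 (chr10:117688875-117710758) was at 92.3 and 75.0 CPM in the controls and at 92.9 and 70.4 CPM in the cKO libraries, so the groups overlapped fully. Its log2 fold change of -0.03 ± 0.18 was the smallest of the 8. Bax (chr7:45461697-45466898) was at 15.5 and 14.3 CPM against 21.3 and 14.6 CPM, and the groups overlapped. Its log2 fold change of 0.26 ± 0.24 became -0.028 without the first cKO library.

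Bbc3 (chr7:16308393-16318205) and Phlda3 (chr1:135766119-135769136), which encodes a pleckstrin homology protein that opposes Akt, had too few counts in cardiomyocytes to be tested. Bbc3 had 1 and 5 UMIs in the controls and 11 and 10 in the cKO libraries. Summed over each group this was 0.382 CPM, from 6 of 15687408 UMIs, against 1.58 CPM, from 21 of 13304964. Phlda3 had 3 and 8 UMIs against 9 and 4, with no separation of the groups.

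Cardiomyocyte nuclei of the cKO libraries held more UMIs, with medians of 4297 and 5263 against 3161 and 3934, and this moved the share of nuclei in which a gene was seen. Cdkn1a had a UMI in 3.27% and 3.51% of control nuclei and in 6.22% and 6.71% of cKO nuclei. When each nucleus was thinned to 1000 UMIs the shares were 1.11% and 1.201% against 1.43% and 1.49%. The exact binomial intervals of the thinned shares all overlapped, with the highest lower bound at 0.922% and the lowest upper bound at 1.72%. Sesn1 shares overlapped before thinning, at 74.3% and 76.4% in the controls and 69.3% and 74.3% in the cKO libraries. It was seen in 40.1% and 38.8% of thinned control nuclei and in 30.9% and 32.5% of thinned cKO nuclei, and the 95% intervals of the groups did not overlap. These intervals cover counting error only. Shallower nuclei were left out, between 60 and 110 per library. Free RNA from other cells can add UMIs of genes that are low in cardiomyocytes. The summed level of 12 endothelial markers in cardiomyocyte nuclei was 228 and 236 CPM in the controls and 213 and 208 CPM in the cKO libraries, with none at 0. For 12 macrophage markers it was 153 and 153 CPM against 129 and 148 CPM, and for 12 fibroblast markers 1714 and 1751 CPM against 1639 and 1677 CPM, again with none at 0.

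**Figure D2:**
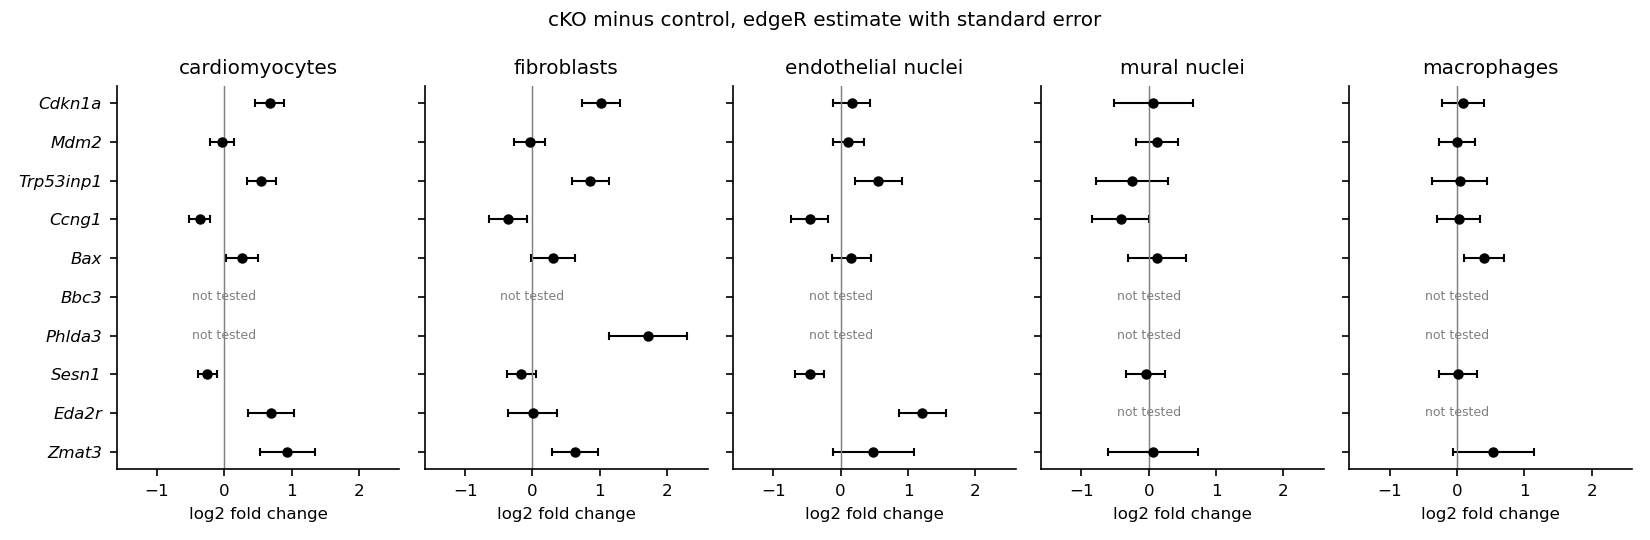
Log2 fold change, cKO minus control, for the members tested in each of the 5 classes (between 7 and 9 of the 10), with points at the edgeR estimate and bars for its standard error (2 libraries per group). The 4 higher and 2 lower genes of cardiomyocytes are seen in the first panel, and no value in any panel passed the threshold.

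The cardiomyocyte nuclei formed 3 clusters. Values by cluster or by a split of the nuclei are CPM without TMM scaling. Cluster 0 was led by Esr1, Nppb and Gh and held 82.6% and 82.1% of the cardiomyocyte nuclei of the cKO libraries but 15.7% and 14.4% of those of the controls. Cdkn1a was at 27.6 and 13.99 CPM in the control nuclei of that cluster and at 16.4 and 16.1 CPM in its cKO nuclei. The cluster with the largest part of the control nuclei held 44.8% and 58.4% of them. Cdkn1a was at 6.46 and 8.27 CPM in its control nuclei. Its cKO nuclei were at 11.9 and 16.0 CPM, from 4 and 12 UMIs. In the third cluster the controls were at 7.68 and 8.45 CPM. The cKO libraries were at 18.1 and 11.2 CPM there, from 5 and 4 UMIs. Since the clusters were drawn from the same counts, these values are a description. Nppb encodes B-type natriuretic peptide, which cardiomyocytes make under wall stress. Among nuclei with at least 3000 UMIs, Cdkn1a was higher in those with an Nppb UMI in every library. The values with and without were 10.7 and 7.74 CPM in the first control, from only 12 and 19 UMIs. In the second control they were 11.6 and 8.11 CPM, from 27 and 56 UMIs. The first cKO library was at 17.6 and 10.1 CPM, from 62 and 12 UMIs. The second cKO library was at 17.1 and 12.9 CPM, from 94 and 27 UMIs. Trp53inp1 was lower with Nppb in the first control and in the cKO libraries, and near equal in the second control. The controls were at 15.1 against 18.3 CPM, from 17 and 45 UMIs, and 16.27 against 16.36 CPM, from 38 and 113 UMIs. The cKO libraries were at 27.6 against 29.4 CPM, from 97 and 35 UMIs, and 19.3 against 21.1 CPM, from 106 and 44 UMIs. Nuclei with an Nppb UMI were deeper, for example with a median of 5120.5 against 4624 UMIs in the first cKO library. In the cKO libraries all 10 and 9 of the Bbc3 UMIs in these nuclei were in nuclei with Nppb, at 2.84 and 1.64 CPM. Nuclei without Nppb had 0, which allows up to 2.52 and 1.44 CPM. They also held fewer of all UMIs, 1190807 against 3515317 and 2085236 against 5495149, with Esr1 and Nppb counts left out. The first control had 0 Bbc3 UMIs in either kind of nucleus, and the second had 1 with Nppb and 4 without. In the cKO libraries Bax was at 24.5 and 15.3 CPM with Nppb, from 86 and 84 UMIs. Without Nppb it was at 14.3 and 12.5 CPM there, from 17 and 26 UMIs. The first control was at 15.1 against 17.9 CPM, from only 17 and 44 UMIs. The second control was near equal, at 12.0 against 12.7 CPM, from 28 and 88 UMIs. Mdm2 showed no common order.

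Esr1 UMIs did not divide the nuclei in the same way. In the cKO libraries Cdkn1a was at 15.3 and 15.2 CPM in nuclei with Esr1 UMIs and at 16.6 and 18.2 CPM in nuclei without them. The control nuclei without Esr1 UMIs were at 8.44 and 9.51 CPM. Trp53inp1 was at 24.7 and 19.97 CPM with and 35.3 and 19.2 CPM without Esr1 UMIs in the cKO libraries. Nuclei of 1 library are not replicates, so no test was made of either split.

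**Figure D3:**
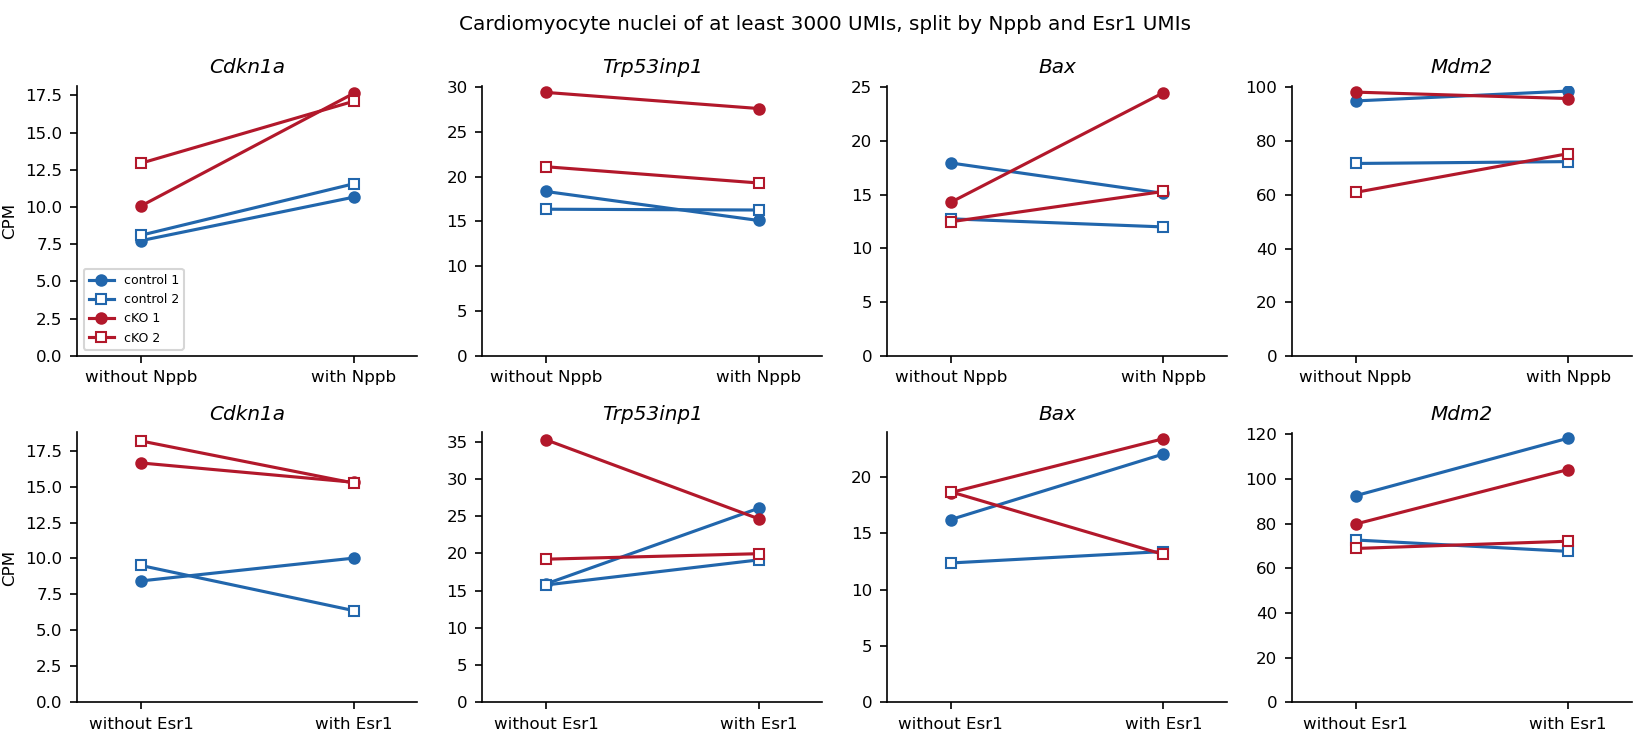
CPM of Cdkn1a, Trp53inp1, Bax and Mdm2 in cardiomyocyte nuclei of at least 3000 UMIs, without and with an Nppb UMI (upper row) or an Esr1 UMI (lower row), with a line for each library. Cdkn1a was higher with Nppb in all 4 libraries, at 17.6 and 17.1 CPM in the cKO libraries, and had no such order for Esr1. The Cdkn1a points of the upper row rest on 12 to 94 UMIs each.

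In fibroblasts Cdkn1a was the member nearest to the threshold. It was at 50.9 and 30.3 CPM in the controls and at 72.8 and 77.9 CPM in the cKO libraries, so the groups did not overlap. The log2 fold change was 1.02 ± 0.28, with an adjusted p of 0.0702 by edgeR. Trp53inp1 was at 23.6 and 36.4 CPM against 57.0 and 59.2 CPM, a log2 fold change of 0.86 ± 0.27 (adjusted p = 0.131, edgeR). Its estimate was 0.67 without the first control and 1.31 without the second control. Phlda3 had the largest estimate of the members in any class, 1.72 ± 0.58, at 3.64 and 4.62 CPM against 21.1 and 10.3 CPM, and rested on 2 and 9 UMIs in the controls and 24 and 33 in the cKO libraries (adjusted p = 0.156, edgeR). Zmat3 was at 19.99 and 18.5 CPM against 35.1 and 25.2 CPM. Ccng1 was lower here too, at 41.8 and 43.1 CPM against 38.6 and 29.3 CPM, although its log2 fold change of -0.36 became 0.12 when nuclei with up to 20% mitochondrial UMIs were kept. Sesn1 was at 176 and 179 CPM against 142 and 172 CPM. Mdm2, Bax and Eda2r overlapped between the groups, with log2 fold changes of -0.04, 0.31 and 0.01. Bbc3 was not tested, with 5 and 6 UMIs in the controls and 4 and 17 in the cKO libraries.

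Of the 9 members tested in fibroblasts, 0 passed by edgeR and 0 by DESeq2, where 3.65% of 11906 genes passed by edgeR. The number at an unadjusted p under 0.05 was 3, against 13.9% of all genes, and the groups did not overlap in 6, against 42.8%. The call of Cdkn1a turned on the settings. Its adjusted p by edgeR was 0.0061 without the first control library and 0.0073 when nuclei with up to 20% mitochondrial UMIs were kept, and 0.608 without the second control library, where the log2 fold change was 0.58. Among fibroblast clusters, the one led by Cilp, Nox4 and Postn had Cdkn1a at 81.0 and 80.3 CPM in the cKO libraries. The controls were at 41.7 and 44.3 CPM there, from 5 and 10 UMIs. The cluster with Scara5 among its leading genes held most control fibroblasts. In it Cdkn1a was at 11.9 and 59.8 CPM in the cKO libraries, from only 1 and 21 UMIs. The controls were at 54.2 and 27.4 CPM in that cluster. The Postn cluster held 89.6% and 78.8% of cKO fibroblasts and 16.1% and 8.49% of control fibroblasts. In it Phlda3 was at 8.34 and 17.7 CPM in the controls, from 1 and 4 UMIs, and at 23.7 and 11.9 CPM in the cKO libraries, so the groups overlapped within the cluster. The summed level of the 12 cardiomyocyte markers in fibroblasts was lower in the cKO libraries, at 8763 and 6803 CPM against 11861 and 8952 CPM, with none at 0. Ccng1 and Sesn1 are highest in cardiomyocytes, and the part of free cardiomyocyte RNA in their fibroblast values was not tested.

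In endothelial nuclei Eda2r had the lowest p of the members. It was at 18.3 and 14.8 CPM in the controls and at 29.3 and 42.9 CPM in the cKO libraries, without overlap, a log2 fold change of 1.21 ± 0.35 (adjusted p = 0.118, edgeR). With nuclei of up to 20% mitochondrial UMIs kept, the log2 fold change was 0.06. Trp53inp1 was at 16.3 and 18.8 CPM against 32.0 and 22.7 CPM. Sesn1 was lower, at 203 and 209 CPM against 148 and 152 CPM, as was Ccng1, at 58.9 and 53.1 CPM against 49.0 and 33.5 CPM. Here the summed cardiomyocyte markers were at 25328 and 18069 CPM in the controls and at 14041 and 9006 CPM in the cKO libraries, with none at 0, and their part in the Sesn1 and Ccng1 values was not tested. Cdkn1a varied more between the controls, at 56.9 and 113 CPM, than between the groups, with 94.0 and 107 CPM in the cKO libraries. Of the 8 members tested, 0 passed by edgeR, where 1.00% of 11471 genes passed. By DESeq2 0 passed as well, but it gave no adjusted p for Eda2r, Trp53inp1 and Zmat3. DESeq2 gave an adjusted p for 5911 genes in this class, so it did not judge those members. The number at an unadjusted p under 0.05 was 1, against 12.0% of all genes, and the groups did not overlap in 4, against 42.1%.

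A single endothelial cluster stood out for both genes. It was led by Adamts4, Rnd1 and Selp, which encodes the leukocyte adhesion receptor P-selectin, and 184 of its 189 nuclei came from the second cKO library. In that library it had Cdkn1a at 453 CPM and Eda2r at 128 CPM. Over the endothelial clusters led by other genes, Cdkn1a did not exceed 163 CPM and Eda2r did not exceed 41.2 CPM in any library. Trp53inp1, by contrast, was at 6.38 CPM in it, and Zmat3 and Phlda3 had 0 UMIs there. Without the clusters that came almost wholly from 1 library, which also removed a fibroblast cluster led by Il6 and Ptx3, the endothelial log2 fold change of Eda2r was 0.97 (adjusted p = 0.230, edgeR) and that of Cdkn1a was -0.12. With 1 library behind the cluster, the nuclei and the library cannot be told apart.

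**Figure D4:**
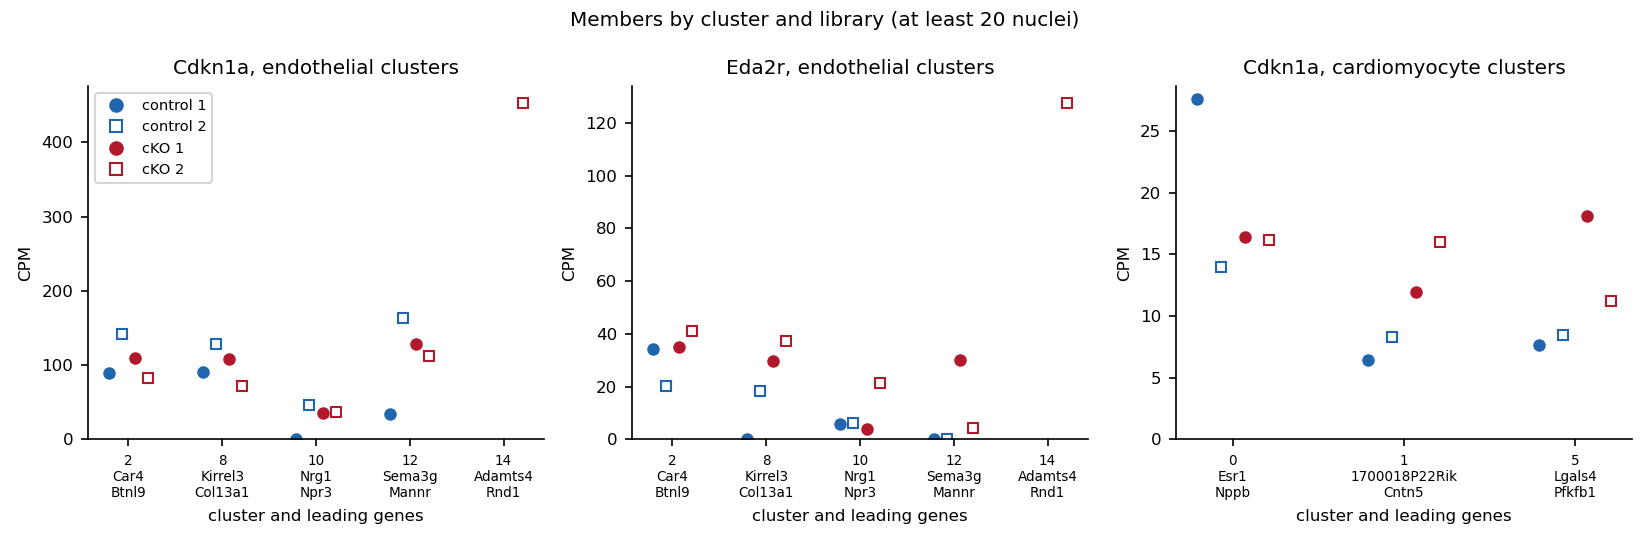
CPM of Cdkn1a and Eda2r by endothelial cluster and of Cdkn1a by cardiomyocyte cluster, with a point for each library that gave at least 20 nuclei and the leading genes under each cluster number. Cluster 14, shown for the second cKO library alone, had Cdkn1a at 453 CPM and Eda2r at 128 CPM.

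Mural nuclei and macrophages showed smaller estimates or wider errors. In mural nuclei 0 of 7 members tested passed by edgeR and 0 by DESeq2 (0.244% of 8181 genes passed by edgeR), 0 had an unadjusted p under 0.05 (5.70% of all genes), and the groups were apart in 1 (34.2% of all genes). That gene was Ccng1, at 53.7 and 42.4 CPM in the controls and 33.9 and 34.7 CPM in the cKO libraries, and its log2 fold change of -0.42 was 0.06 with up to 20% mitochondrial UMIs. Cdkn1a was counted with 7 to 17 UMIs per library, and its log2 fold change of 0.07 had a standard error of 0.59. In macrophages 0 of 7 members passed by edgeR and 0 by DESeq2 (0.874% of 11328 genes by edgeR), 0 had an unadjusted p under 0.05 (11.7% of all genes), and the groups were apart in 1 (42.2% of all genes). That gene was Bax, at 71.2 and 59.9 CPM against 91.2 and 79.6 CPM, with a log2 fold change of 0.40 ± 0.30. The macrophage cluster led by Cd300lf, Spp1 and Gpnmb held 41.0% and 35.9% of cKO macrophages but 3.57% and 1.88% of control macrophages, and had Bax at 130.0 and 119 CPM in the cKO libraries. In the cluster led by Cd163 and F13a1, which held most control macrophages, Bax overlapped between the groups, at 69.4 and 64.6 CPM in the controls and 74.8 and 52.7 CPM in the cKO libraries. The part of this shift in cluster shares in the Bax value of the class was not tested. Cdkn1a in macrophages was at 74.1 and 55.9 CPM against 77.0 and 57.8 CPM, a log2 fold change of 0.09 ± 0.32, and Mdm2 was at 154 and 144 CPM against 145 and 153 CPM. A macrophage cluster led by the proliferation genes Mki67 and Top2a had Cdkn1a at 230.5 and 185 CPM in the controls and at 134 and 70.0 CPM in the cKO libraries, from 69 UMIs in all.

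The change of each member was then compared between cardiomyocytes and each other class in 1 model, with the library as a block. Of the 10 members tested against fibroblasts, 0 differed (adjusted p, edgeR), where 5.64% of all genes did. The numbers were 0 of 10 against endothelial nuclei (4.07% of all genes), 0 of 9 against mural nuclei (0.970%) and 0 of 10 against macrophages (1.92%). The difference for Cdkn1a was 0.41 ± 0.28 in fibroblasts over cardiomyocytes, and -0.50 ± 0.25 in endothelial nuclei over cardiomyocytes, the comparison with its lowest unadjusted p of 0.0468 (adjusted p = 0.352). The larger estimates of Cdkn1a in fibroblasts are thus not shown to differ from those in cardiomyocytes.

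p53 itself and its regulators were read from the same fits. Trp53, which encodes p53, was at 20.5 and 18.6 CPM in control cardiomyocytes and at 30.1 and 27.4 CPM in cKO cardiomyocytes, a log2 fold change of 0.56 ± 0.19 (adjusted p = 0.202, edgeR). In fibroblasts and endothelial nuclei its estimates were 0.02 and 0.03. Mdm4 was lower in both cKO libraries than in either control in all 5 classes. In cardiomyocytes it was at 140 and 135 CPM against 111 and 106 CPM (log2 fold change -0.34 ± 0.13), in fibroblasts at 296 and 239 CPM against 198 and 169 CPM (-0.54 ± 0.22) and in mural nuclei at 349 and 251 CPM against 156 and 199 CPM (-0.70 ± 0.28). It passed in none of the 5, with adjusted p between 0.275 and 0.662 by edgeR. Over all genes tested in a class, the groups did not overlap in 34.2% to 43.7%. The 5 classes come from the same libraries, so they are not independent of each other. Of the 23 genes listed as p53 and its regulators, 20 were tested in cardiomyocytes and 0 passed by edgeR or DESeq2, with 3 at an unadjusted p under 0.05, a share near the 14.3% of all genes.

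Other genes of the network did pass. Of 40 further p53 targets, 31 were tested in cardiomyocytes, where 2 rose, 0 fell and 29 did not pass, with a median log2 fold change of 0.12. Over all genes 1.27% rose and 1.57% fell. Btg2, which encodes an antiproliferative protein, rose from 15.1 and 13.5 CPM to 32.6 and 47.6 CPM (log2 fold change 1.51 ± 0.23, adjusted p = 0.0131, edgeR). Gdf15, a secreted stress cytokine that is also induced by the integrated stress response, rose from 1.24 and 1.42 CPM to 24.7 and 16.7 CPM (3.90 ± 0.34, adjusted p = 0.0020, edgeR). In fibroblasts 29 were tested, 5 rose, 0 fell and 24 did not pass, with a median of 0.15, where 2.26% of all genes rose and 1.39% fell. They were Btg2 (1.86 ± 0.45), Psrc1, a microtubule-associated protein (2.58 ± 0.63), Sulf2, an extracellular heparan sulfate sulfatase (1.10 ± 0.24), Ano3, an anoctamin family membrane protein (1.73 ± 0.36), and Zfp365, a zinc finger protein that acts in genome stability (3.39 ± 0.86, with 0 and 1.03 CPM in the controls). By DESeq2 2 of these, Sulf2 and Ano3, passed. Of these targets, 0 passed in endothelial nuclei (27 tested), mural nuclei (21) and macrophages (30) by edgeR and 0 by DESeq2. The numbers at an unadjusted p under 0.05 were 4, 0 and 4, where 12.0%, 5.70% and 11.7% of all genes were. In endothelial nuclei DESeq2 gave an adjusted p for only 5911 genes, so it may not have judged all of the 27.

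Bax and Bbc3 are pro-apoptotic members of the BCL2 family. The family members that passed in cardiomyocytes were the anti-apoptotic Bcl2 and Bcl2l1. Bcl2 rose from 8.07 and 11.4 CPM to 37.9 and 38.7 CPM (log2 fold change 1.94 ± 0.22, adjusted p = 0.0041, edgeR). Bcl2l1, which encodes BCL-XL, fell from 120 and 127 CPM to 63.9 and 68.5 CPM (-0.90 ± 0.14, adjusted p = 0.0146, edgeR). The other 16 of the 18 tested BCL2 family, caspase and caspase-activation genes did not pass, and over all cardiomyocyte genes 2.84% passed. Among 14 tested CDK inhibitors and G1/S genes, 0 passed by edgeR and 1 by DESeq2, which called 3.99% of all genes it tested. That was Ccnd3, cyclin D3, at 57.5 and 68.4 CPM against 34.1 and 41.1 CPM. It is named here after its values were seen. A list of 14 DNA damage and Cre-related genes had 13 tested in cardiomyocytes, and the 2 that passed, against the same 2.84% of all genes, were Esr1 and Gh, whose sequences are used in Cre transgenes.

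**Figure D5:**
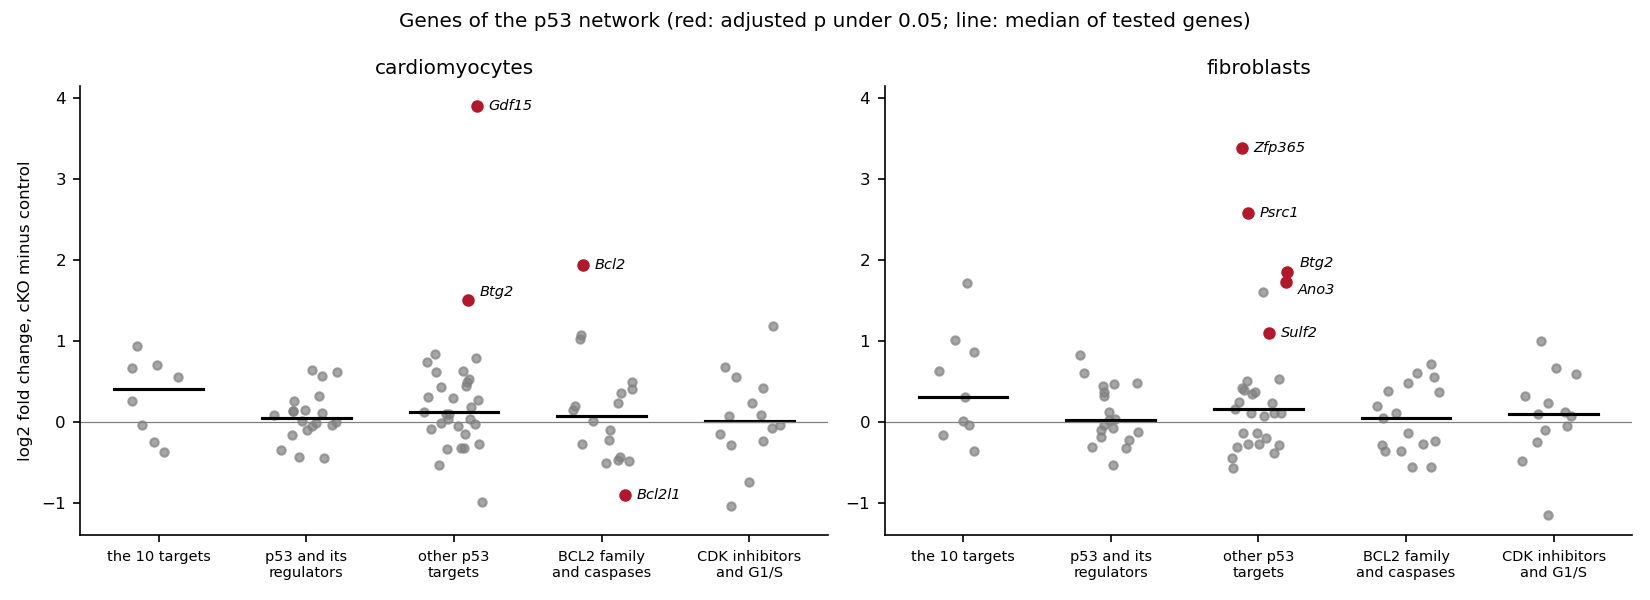
Log2 fold change, cKO minus control, of the tested genes of each list in cardiomyocytes (left) and fibroblasts (right), with 1 point per gene, a line at the median and genes past the adjusted threshold in red and named. The p53 targets tested, 8 in cardiomyocytes and 9 in fibroblasts, have medians of 0.40 and 0.31 and no red point.

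Over the 20 sums of 5 classes and 4 libraries, the genes whose log2 level was most like that of Cdkn1a were Mesd (Pearson's r = 0.950), Ly6e (0.946), Tapbp (0.943), Cd9 (0.941) and Klf2 (0.936), among 12971 genes compared. For Mdm2 they were Rp2 (0.928), Stx7 (0.919), C1qc (0.919), Tyrobp (0.913) and Cd53 (0.912). These sums share libraries and differ mostly by cell class, so the values describe likeness across classes only.

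The smaller classes had too few UMIs to test. In lymphatic endothelial-like nuclei Cdkn1a had 1 and 10 UMIs in the controls (20.9 and 48.8 CPM) and 15 and 24 in the cKO libraries (88.4 and 65.6 CPM), and Sesn1 was at 377 and 366 CPM against 136 and 224 CPM. In lymphocyte-like nuclei the whole control group gave 1 UMI of Cdkn1a and the cKO group 7.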

How the data were processed

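Single-nucleus UMI counts were deposited by the authors as 1 raw count matrix per library, and the submitters' processing notes name mm10 as the build. For the aligner and counter, nothing is given in the sources used here. Of the 44628 gene identifiers, 60.9% are in GENCODE M21 for GRCm38, from which gene coordinates were taken; the identifiers point to a later annotation. Per the labels' protocols, nuclei were sorted with a nuclear pore antibody tag.

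Nuclei with at least 300 genes, at least 500 UMIs and at most 5% mitochondrial UMIs were kept, and the 0.5% with most UMIs were removed. Between 48.8% and 53.8% of the barcodes of a library were over the mitochondrial limit. Doublets were called with Scrublet. In 3 libraries its automatic limit marked almost none, so the 6% of nuclei with the highest scores were removed, and in the second cKO library it marked 13.5%, which were removed. Nuclei were clustered with scanpy 1.11.5 (2000 variable genes, 30 components, 15 neighbours, Leiden resolution 1), and 27 clusters were named from marker lists, needing 3 markers at over 2 times the level of the other nuclei; a second pass, written after a cardiomyocyte cluster had stayed unnamed, compared such clusters with the nuclei outside their own class.

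Counts were summed per library and class and tested with edgeR 4.0.16 (two-sided quasi-likelihood test, TMM, filterByExpr, Benjamini-Hochberg). Each class was fitted alone on 2 control and 2 cKO libraries. DESeq2 1.42.0 was an alternative, as were no count filter, leaving out each library, a replicate block, mitochondrial limits of 20% and 1%, at least 1000 UMIs, no doublet removal and Leiden resolution 2. The edgeR test of each class and the comparison of fibroblasts with cardiomyocytes were tried on simulated counts. DESeq2, the replicate block and the fit without a count filter were not. Per the labels, each library is its own pool, so with 2 per group p-values measure the spread between pools.

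The 10 members and the gene lists were chosen with earlier results of these data known. The genes named beside the members were those of each list past the threshold, at most 6 per list and class by smallest p, with Trp53 and Mdm4 always, Pkp2 and Esr1 as group checks, and the 5 genes most correlated with Cdkn1a and with Mdm2 among those with a mean of at least 5 CPM, on log2(CPM + 1).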

Additional observations from a re-analysis of the deposited data

How the results depend on the processing

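The count of members past the threshold was 0 in every class, and 0 in each comparison of cardiomyocytes with another class. In cardiomyocytes it stayed at 0 under the alternatives other than the replicate block, and in mural nuclei and macrophages under all of them. It also stayed at 0 for the comparisons between classes without a count filter and without each library. At most 1% mitochondrial UMIs left 1 member to test in mural nuclei and 2 in macrophages, so a 0 there says little. In mural nuclei 0 of all genes passed at that limit and with at least 1000 UMIs. In fibroblasts the count of members was 1 (Cdkn1a) without the count filter, without doublet removal and at Leiden resolution 2. It was 2 (Cdkn1a and Phlda3) at up to 20% mitochondrial UMIs. Leaving out each library in turn gave 0 to 1 there. In endothelial nuclei it was 1 (Eda2r) without the count filter. The cause was not tested.

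With the replicate number as a block, 5 members passed in cardiomyocytes (Cdkn1a, Trp53inp1 and Zmat3 higher, Ccng1 and Sesn1 lower), 3 in fibroblasts (Cdkn1a, Trp53inp1 and Phlda3) and 2 in endothelial nuclei (Eda2r and Sesn1). The block leaves 1 residual degree of freedom and called 25.1%, 18% and 14.6% of all genes tested in these classes. The labels do not say what the number marks. Same-numbered libraries deviated together from their group means, with correlations from 0.19 to 0.503 over genes in the 5 classes.

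Of 451 estimates under alternatives, 63 changed sign, 61 of them where the estimate as reported was within 1 standard error of 0. The others were Bax in cardiomyocytes, which ranged from -0.028 without the first to 0.52 without the second cKO library, and Ccng1 in fibroblasts, 0.12 at up to 20% mitochondrial UMIs. At most 1% mitochondrial UMIs left no cardiomyocyte class to fit. The alternative without clusters held by 1 library was chosen after seeing the data. Depth limits Bbc3 and Phlda3 most, which were untested in 5 and 4 of the 5 classes. The number of all genes called in a class also moved, in cardiomyocytes from 433 to 249 at Leiden resolution 2 and 817 without the count filter, in fibroblasts from 435 to 234 without the second cKO library, in endothelial nuclei from 115 to 0 without either cKO library and 390 at Leiden resolution 2, in mural nuclei from 20 to 0 without either control and to 1 by DESeq2, and in macrophages from 99 to 420 without the second cKO library.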
